A study of Homo sapiens with 2 samples.

Results

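The alpha, beta and gamma tubulin genes described here are 10 genes, TUBA1A, TUBA1B, TUBA1C, TUBA4A, TUBB, TUBB2A, TUBB2B, TUBB4B, TUBB6 and TUBG1, of 59026 genes that could be matched to GENCODE v44. They were chosen by name, and all of their 65 listed transcripts, of 206696 transcripts listed in all, were used and summed per gene. The values came from rRNA-depleted total RNA of HEK293 Flp-In T-Rex cells, a human embryonic kidney line that carries an integration site for tetracycline-controlled transgenes. No treatment was given, and 1 group of 2 libraries was sequenced, called replicate 1 and replicate 2. The sources used here did not say whether these were separate cultures, so the spread between them may be technical. With 2 libraries of 1 group no test between conditions was possible, and the smallest two-sided p of a sign-flip test would be 0.5. In bulk RNA, fewer cells with a transcript and less of it per cell cannot be told apart.

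Alpha and beta tubulin form a heterodimer, and these dimers stack head to tail into the protofilaments of microtubules. Gamma tubulin is not part of the polymer but nucleates it, as a ring-shaped complex at the centrosome. Each class is encoded by several genes whose proteins are called isotypes, and the isotypes differ most in their C-terminal tails, where many tubulin modifications sit. Cells also control the amount of tubulin through its own mRNA: when free dimer is plentiful, the adaptor TTC5 recognises the first residues of a nascent tubulin chain and the mRNA being translated is degraded.

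The coding sequences show how close the genes are. Within the alpha class the identity of aligned coding sequences ranged from 84.4% to 97.2%, and within the beta class from 80.9% to 98.1%, the latter for TUBB2A and TUBB2B. Between alpha and beta members it ranged from 52.9% to 55.6%, and between TUBG1 and the other members from 49.9% to 54.3%. The first 30 coding bases of the canonical transcript are shown because in alpha and beta members the first codons write the stretch that the mRNA control system reads. TUBG1 is shown for comparison only. Capitals mark the first 4 codons (12 bases). The canonical transcripts of TUBA1A and TUBA1C have the same 30 bases as that of TUBA1B. For these 2 genes the canonical transcript was not the one with the most counts. TUBA1A-202 took 32.6% and 30.9% of its gene in the 2 libraries, and TUBA1C-201 took 2.79% and 4.08%. The starts of TUBA1A-207 and TUBA1C-202, which had the most counts, were not looked up. The first 12 bases took 2 forms among the 4 alpha members and 4 forms among the 5 beta members, where TUBB and TUBB4B share one.
TUBA1B: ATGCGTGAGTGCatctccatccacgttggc
TUBA4A: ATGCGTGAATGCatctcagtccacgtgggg
TUBB: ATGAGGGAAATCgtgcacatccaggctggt
TUBB2A: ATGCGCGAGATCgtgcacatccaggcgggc
TUBB2B: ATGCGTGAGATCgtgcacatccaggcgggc
TUBB4B: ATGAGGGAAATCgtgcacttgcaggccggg
TUBB6: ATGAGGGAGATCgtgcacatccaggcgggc
TUBG1: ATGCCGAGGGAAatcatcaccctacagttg

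In GRCh38 (GENCODE v44), the start of TUBB lies on the plus strand at chr6:30720507-30720536, that of TUBB4B on the plus strand at chr9:137241361-137241390, that of TUBB6 on the plus strand at chr18:12308293-12308322 and that of TUBG1 on the plus strand at chr17:42609738-42609767. The starts of TUBB2A at chr6:3157434-3157463 and of TUBB2B at chr6:3227514-3227543 lie on the minus strand. In the alpha genes an intron follows the start codon: for TUBA1B, on the minus strand of chromosome 12, the start codon lies at 49131298 to 49131300 and the other bases shown at 49129696 to 49129722. For TUBA4A, on the minus strand of chromosome 2, they lie at 219253856 to 219253858 and at 219252204 to 219252230.

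The last 60 coding bases of the beta members, stop codon included, are shown because they encode the tails in which isotypes differ. Capitals mark bases that differ from TUBB in the aligned coding sequences, inserted bases included. Against TUBB, TUBB2A differed at 18 bases, TUBB2B at 19, TUBB4B at 14 and TUBB6 at 23.
TUBB: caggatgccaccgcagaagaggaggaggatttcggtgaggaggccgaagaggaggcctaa
TUBB2A: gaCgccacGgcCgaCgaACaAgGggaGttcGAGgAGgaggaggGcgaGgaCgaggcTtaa
TUBB2B: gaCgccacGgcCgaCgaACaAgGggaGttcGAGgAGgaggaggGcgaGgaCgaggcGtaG
TUBB4B: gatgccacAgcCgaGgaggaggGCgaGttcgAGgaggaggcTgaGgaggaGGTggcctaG
TUBB6: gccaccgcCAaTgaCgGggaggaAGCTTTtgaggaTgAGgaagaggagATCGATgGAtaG

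These ends lie at chr6:30724338-30724397 (TUBB, plus strand), chr6:3153863-3153922 (TUBB2A, minus strand), chr6:3224751-3224810 (TUBB2B, minus strand), chr9:137243497-137243556 (TUBB4B, plus strand) and chr18:12326071-12326130 (TUBB6, plus strand).

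The libraries held 25158962 and 27143860 estimated counts, of which the 10 tubulin genes took 0.234% and 0.260%. Of 5 genes that HEK293 cells are known to express, 5 averaged 10 or more normalised counts, from VIM to NEFM, where 19110 of 59026 matched genes did. The summed length-scaled levels of these 5 genes were 334 and 330.5 per 1000000. VIM alone held 311 and 302 of these sums. PAX2 (0.679 and 0.709) and NEFM (0.234 and 0.327) lay below the neuronal marker RBFOX3 (0.851 and 1.10), while LHX1 and NEFL lay above it. Of the markers of other cell types, PTPRC and CD3E (leukocytes), ALB (hepatocytes) and DCN (fibroblasts) were listed at 0 in both libraries. Of the others, COL1A1 (fibroblasts) had 156 and 291 normalised counts and carried nearly all of the fibroblast sum, and APOA1 (hepatocytes) had 8.46 and 3.71. The summed length-scaled levels of the marker lists in replicates 1 and 2 were 0.0398 and 0.0440 for leukocytes, 0.328 and 0.147 for hepatocytes, 4.21 and 5.51 for fibroblasts, and 1.90 and 1.75 for the neuronal genes SYN1, RBFOX3 and SNAP25.

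TUBA1B and TUBB were the predominant tubulin genes in both libraries, one in each class, and together they held 70.6% and 69.6% of the length-scaled level of the 10 genes. This level is the estimated count of a transcript divided by its length, scaled so that all matched transcripts of a library sum to 1000000. It is used wherever genes are compared with each other, while the authors' normalised counts, which are not divided by length, are used to compare the libraries for 1 gene. TUBA1B, an alpha tubulin of most dividing cells, was at a length-scaled level of 419 and 447 in replicates 1 and 2, with a mean of 433 ± 19.8 (SD, n = 2). TUBB, the widely expressed beta tubulin, was at 409 and 428, with a mean of 418 ± 13.7 (SD, n = 2). They ranked 152 and 157 among all matched genes by this level, and TUBA4A ranked 17228.

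The third level belonged to TUBB4B, a beta tubulin found in many tissues and in cilia, with length-scaled values of 109 and 126 (118 ± 11.7, SD, n = 2). TUBA1C, a further widely expressed alpha tubulin, followed at 62.3 and 72.3 (67.3 ± 7.13). TUBB2B, known for its role in the developing brain, was at 48.4 and 48.9 (48.7 ± 0.400). TUBA1A, the alpha tubulin that predominates in migrating and growing neurons, stood below TUBA1B and TUBA1C, at a length-scaled level of 38.3 and 38.6 (38.4 ± 0.224). TUBG1, the ubiquitous gamma tubulin, had nearly the same mean with values of 36.2 and 40.7 (38.4 ± 3.24). TUBB6, a divergent beta isotype, was at 26.1 and 29.1 (27.6 ± 2.16) on the same scale. TUBB2A, which encodes a brain-enriched isotype closely similar to TUBB2B, was at 24.0 and 26.4 (25.2 ± 1.71). TUBA4A, an alpha tubulin of platelets and adult neurons, was at 0.691 and 0.523 (0.607 ± 0.118), from 22.3 and 24.96 estimated counts.

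**Figure D1:**
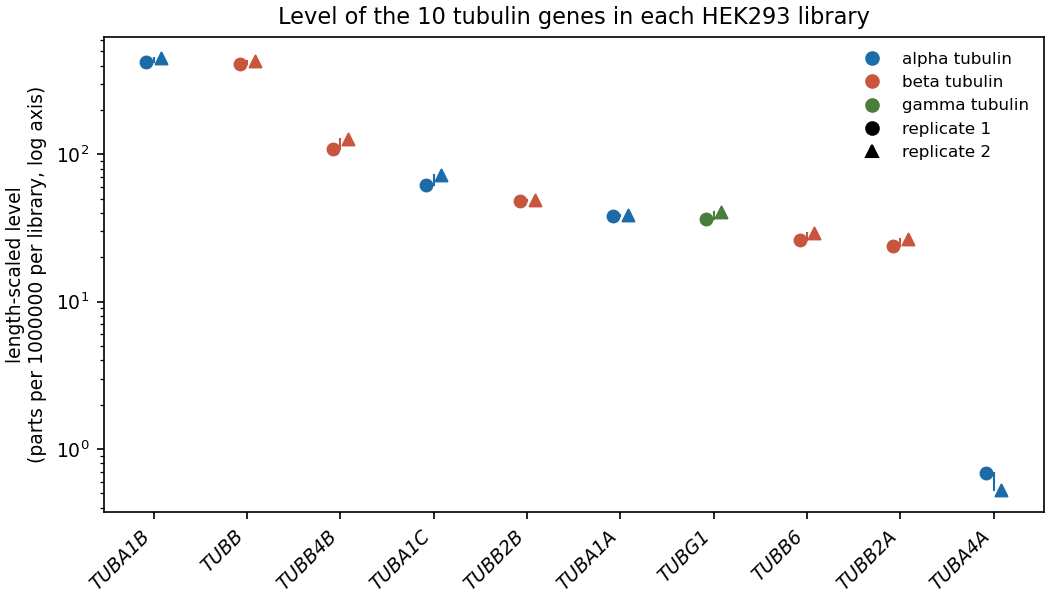
Length-scaled level of each gene (vertical log axis, parts per 1000000 per library), with circles for replicate 1, triangles for replicate 2, a line joining both values and colours for the tubulin class. TUBA1B and TUBB lie between 409 and 447, TUBA4A lies below 1, and the other 7 genes lie between 24.0 and 126.

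Neighbours in this order were called apart where neither library reversed them and their means lay further from each other than both SDs added up. This held for 6 of 9 neighbouring pairs, and for between 4 and 8 of 9 under other choices of length or transcript. TUBG1 and TUBB6 were among the 6, but not with counts per union of exons (log2 ratio 0.36). TUBA1B and TUBB did not differ beyond their spread, with length-scaled ratios of 1.03 and 1.05 in the 2 libraries, although they did per effective length (log2 ratio 0.14). The leading transcript of TUBB is 2515 bases long and that of TUBA1B 1627, and on normalised counts, which are not divided by length, TUBB was the higher (log2 ratio of TUBA1B to TUBB -0.62). TUBA1A and TUBG1 changed order between the libraries, with length-scaled ratios of 1.06 and 0.948. TUBB6 exceeded TUBB2A by 1.09-fold and 1.10-fold per length, which was within their spread. The largest step was between TUBB2A and TUBA4A, 34.8-fold in replicate 1 and 50.5-fold in replicate 2 per length, and the next was between TUBB and TUBB4B at 3.74-fold and 3.40-fold. TUBA1C exceeded TUBB2B by 1.29-fold and 1.48-fold per length, but this order reversed when protein-coding transcripts alone were summed (log2 ratio -0.36).

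The division of each class among its genes was close to the same in both libraries. TUBA1B made up 80.5% and 80.1% of the length-scaled level of the alpha class (80.3% ± 0.353, SD, n = 2), TUBA1C 12.5% ± 0.697, TUBA1A 7.13% ± 0.316 and TUBA4A 0.113% ± 0.0276. In the beta class TUBB made up 66.3% and 65.0% (65.6% ± 0.908), TUBB4B 18.4% ± 0.980, TUBB2B 7.64% ± 0.294, TUBB6 4.33% ± 0.138 and TUBB2A 3.96% ± 0.0843. The beta class was thus spread more evenly over its genes than the alpha class. As a share of counts, TUBA1B took 81.5% of the alpha class in replicate 1 (exact binomial 95% interval 81.0 to 82.0) and 81.0% in replicate 2 (80.5 to 81.5). TUBB took 75.01% of the beta counts in replicate 1 (74.6 to 75.5) and 73.8% in replicate 2 (73.4 to 74.2). These intervals cover counting error only.

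**Figure D2:**
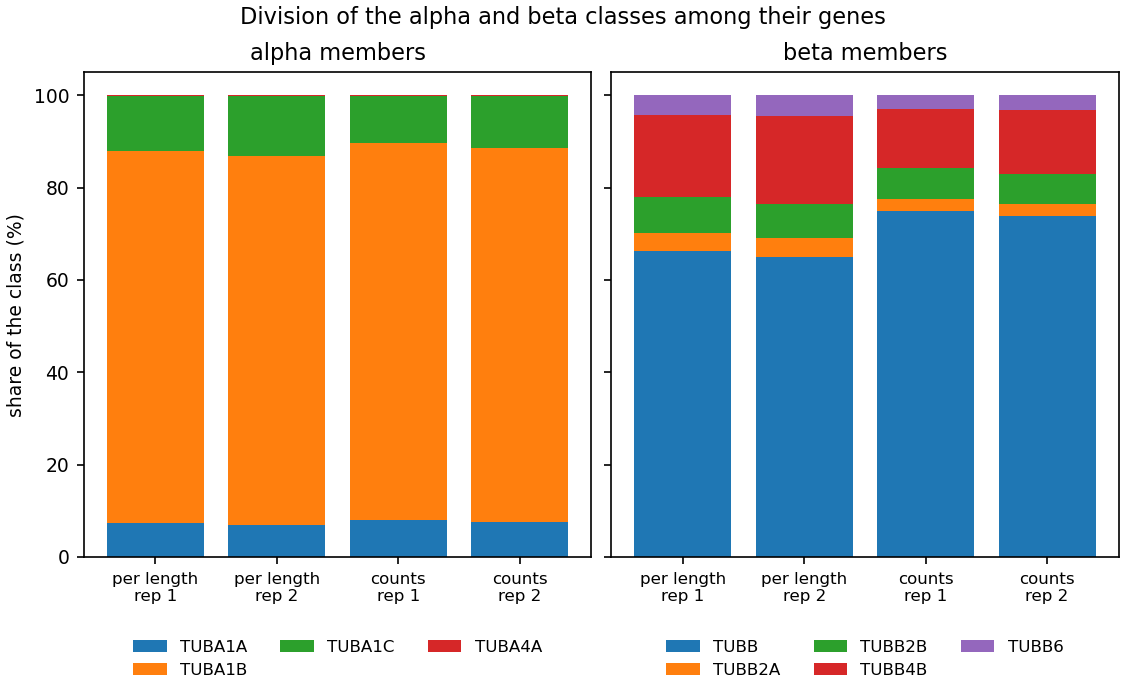
Share of the alpha class (left) and of the beta class (right) that each gene held (vertical axis, %), as stacked bars for each replicate, per length and as normalised counts. TUBA1B fills between 80.1% and 81.5% of every alpha bar, whereas TUBB fills 65.0% and 66.3% of the beta bars per length and 73.8% and 75.01% as counts. TUBA4A is too small a share to be seen.

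Summed per class, the length-scaled level was 520 and 559 for alpha, 616 and 658 for beta and 36.2 and 40.7 for TUBG1. Alpha transcripts were therefore 0.844 and 0.849 of the beta transcripts per length (log2 ratio -0.24 ± 0.01, SD, n = 2), although the proteins pair in equal number. TUBG1 was 0.0587 and 0.0619 of the beta total per length (log2 ratio -4.05 ± 0.05), and with counts per union of exons the log2 ratio was -4.80. The alpha to beta ratio depended on the length given to a gene: it was 0.596 ± 0.00172 with normalised counts.

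Reads of paralogues this close can fit several genes, and RSEM divides them by estimate. Only listed transcripts were searched for shared stretches. Of all stretches of 50 bases in the leading transcript, 56.6% for TUBA1B, 44.2% for TUBA1A and 45.02% for TUBA1C also occurred on the same strand in transcripts of another member. For TUBB2A this was 59.5% and for TUBB2B 49.8%. It was 6.21% for TUBB4B, 0.710% for TUBB6 and 0 for TUBB, TUBA4A and TUBG1. TUBB shared 17.1% of its stretches with the pseudogene TUBBP1, and TUBG1 shared 29.1% with its paralogue TUBG2. The split among TUBA1A, TUBA1B and TUBA1C and that between TUBB2A and TUBB2B are therefore uncertain, and the part of this sharing in the values was not tested.

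**Figure D3:**
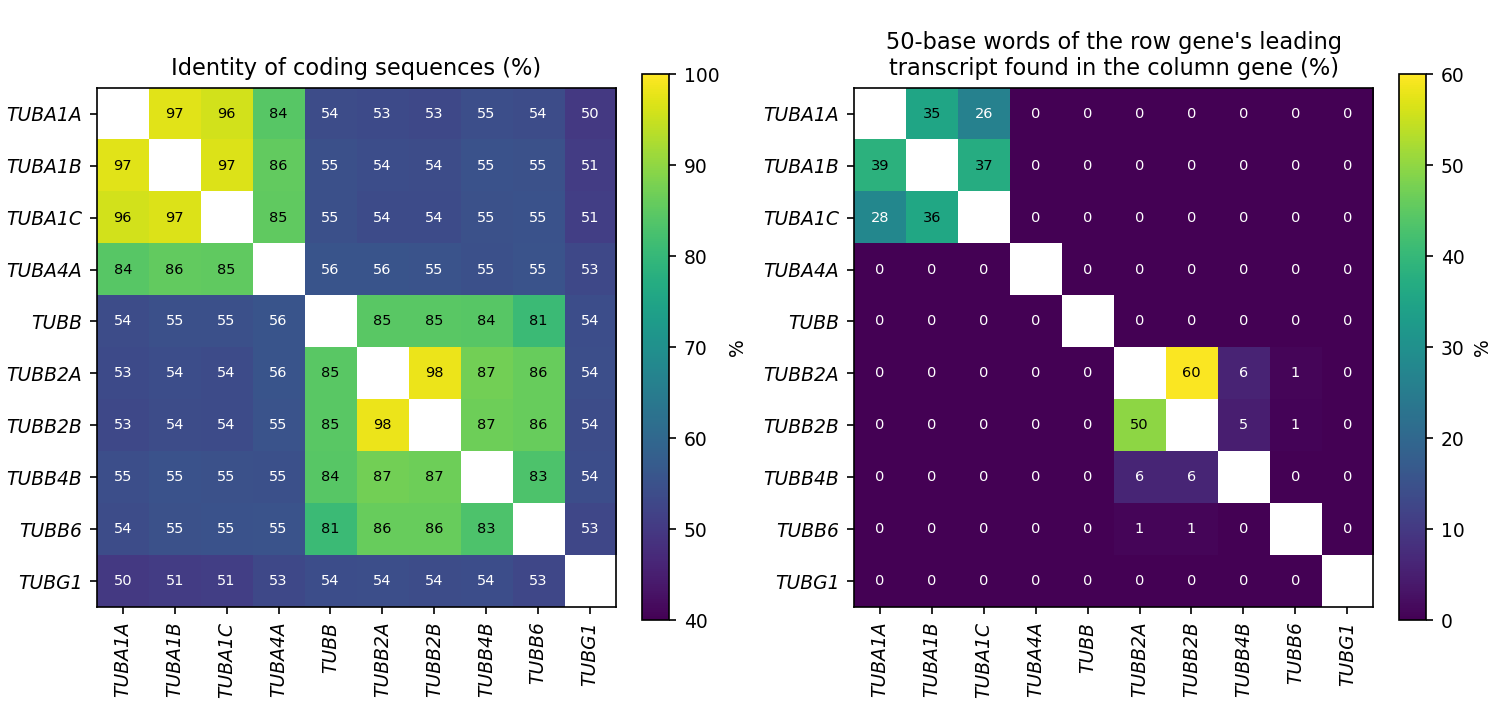
Left, identity of aligned coding sequences for each pair of genes (colour and digits, %). Right, share of the 50-base stretches in the leading transcript of the row gene that also occur in the column gene on the same strand (%). The blocks of high identity are the alpha and the beta class, and shared stretches concentrate in TUBA1A, TUBA1B and TUBA1C and in TUBB2A with TUBB2B.

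Antisense genes were a further limit, chiefly for the alpha cluster on chromosome 12. TUBA1B-AS1, a long non-coding RNA on the opposite strand, overlaps the whole of TUBA1B (49127782 to 49131397) and 3799 bases of TUBA1A. Its transcripts contain 68.7% of the 50-base stretches of the TUBA1B leader on the opposite strand, 27.2% of those of TUBA1A and 25.2% of those of TUBA1C. It was at 2436 normalised counts in replicate 1 and 1525 in replicate 2. Another long non-coding RNA, ENSG00000258232, contains 35.8% of the stretches of the TUBA1C leader on the opposite strand, and it was at 659.7 and 580.5 normalised counts. STK16 covers 29.0% of those of TUBA4A in the same way, at 567 and 647 normalised counts against 23.6 and 23.1 for TUBA4A itself. Of the beta members, TUBB has 19.9% of the stretches of its leader in the long non-coding RNA ENSG00000272540 on the opposite strand. That RNA was at 281 and 521 normalised counts, against 28529 and 29361 for TUBB. How strand was treated in counting is not given in the sources used here, and without strand the reads of such partners cannot be told apart. With all counts of TUBA1B-AS1 added to TUBA1B, its share of the alpha class was 83.5% ± 1.75. No antisense counts were added to TUBA1A, TUBA1C or TUBA4A, so this share could only rise.

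Of the 10 tubulin genes, 10 averaged 10 or more normalised counts and 0 were more than 2-fold apart between the libraries. Of 59026 matched genes, 19110 averaged 10 or more, and 5.23% of these were more than 2-fold apart, so 0 of 10 is near that share. The median absolute log2 difference was 0.10 for the members and 0.28 for all genes. The members were not matched to all genes for level, and each member but TUBA4A averaged 997 or more normalised counts. TUBA1C (2329.9 and 2678 normalised counts, log2 difference 0.20) and TUBB4B (4846 and 5544, 0.19) were the furthest apart. TUBA1A (1830.4 and 1823 normalised counts) and TUBB2B (2578 and 2561) were the closest. TUBA1B had 18453 and 19254 normalised counts and TUBB 28529 and 29361. The other values were 944 and 1050.4 normalised counts for TUBB2A, 1135 and 1269.7 for TUBB6, and 1603 and 1776 for TUBG1. In all, 7 of 10 members were higher in replicate 2, where 44.8% of all genes were. TUBA1A, TUBB2B and TUBA4A were lower by at most 0.02 on the log2 scale. With edgeR TMM factors or counts per 1000000 of the library total 10 of 10 were higher in replicate 2. Such a change of scale moved all genes as well. Their median log2 difference was -0.06 in normalised counts, -0.03 with TMM factors and 0.02 with counts per 1000000. The share of all genes that were higher in these settings is not given here.

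The same transcript led in both libraries for 10 of 10 members, where this held for 81.9% of 14232 genes with several transcripts. The leader took a median of 87.6% of the counts of a member, against 66.3% over all these genes. The members were not matched to these genes for level or for number of listed transcripts, which was 2 for TUBB2A, TUBB2B and TUBB4B. All 10 leaders are annotated as protein-coding, and 8 are the canonical transcript of their gene. Of the 65 transcripts, 18 were listed at 0 in both libraries and 9 in 1 library. Of all 206696 listed transcripts, 101920 were above 0 in replicate 1 and 106754 in replicate 2. Another version of the transcript model stands in GENCODE v44 for 16 of the 65, so their lengths and exons may differ from those used in counting.

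TUBG1-201 (97.6% ± 0.787 of the counts of its gene, SD, n = 2), TUBB2B-201 (97.4% ± 2.52), TUBB-205 (96.8% ± 0.815) and TUBA1B-202 (92.7% ± 1.14) carried nearly all counts of their genes. TUBB2A-201 carried 87.4% ± 2.32 of TUBB2A, and the rest fell to TUBB2A-202, which has no defined coding sequence. TUBA1A was divided among several protein-coding transcripts. TUBA1A-207 took 52.5% and 59.9% of its counts, the canonical TUBA1A-202 took 32.6% and 30.9%, and TUBA1A-201 took 10.9% and 6.37%. TUBA1A-202 has 14 bases outside the exons of TUBA1A-207, and 2 of its 1623 stretches of 50 bases occur in it alone, so few reads can separate the pair. TUBA4A-201 took 63.6% and 84.9% of its gene, from about 25 counts or fewer in each library.

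Retained-intron transcripts were a sizeable part of a few members. Over all members their median share of the counts was 3.19%, against 1.17% over 12678 genes with several transcripts of which 1 or more codes for protein, and the median share of protein-coding transcripts was 91.8% against 91.5%. TUBA1C-203, annotated as a retained intron, took 36.6% and 36.8% of TUBA1C, next to 55.6% and 54.5% for the leader TUBA1C-202. Per length it was ahead of the leader, with a mean of 45.04% against 44.01%. However, 42 of its bases lie in introns of the leader, and 41 of its 1056 stretches of 50 bases occur in it alone. TUBB4B-202 retains a whole intron of TUBB4B-201, of 474 bases at chr9:137242022-137242495 on the plus strand. Its 468 and 813 normalised counts were 9.67% and 14.7% of TUBB4B in the respective libraries. The remaining counts of the gene belonged to TUBB4B-201, at 4377 and 4731. TUBA4A-208, a retained-intron transcript as well, took 12.3% and 10.8% of TUBA4A from under 3 counts per library.

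**Figure D4:**
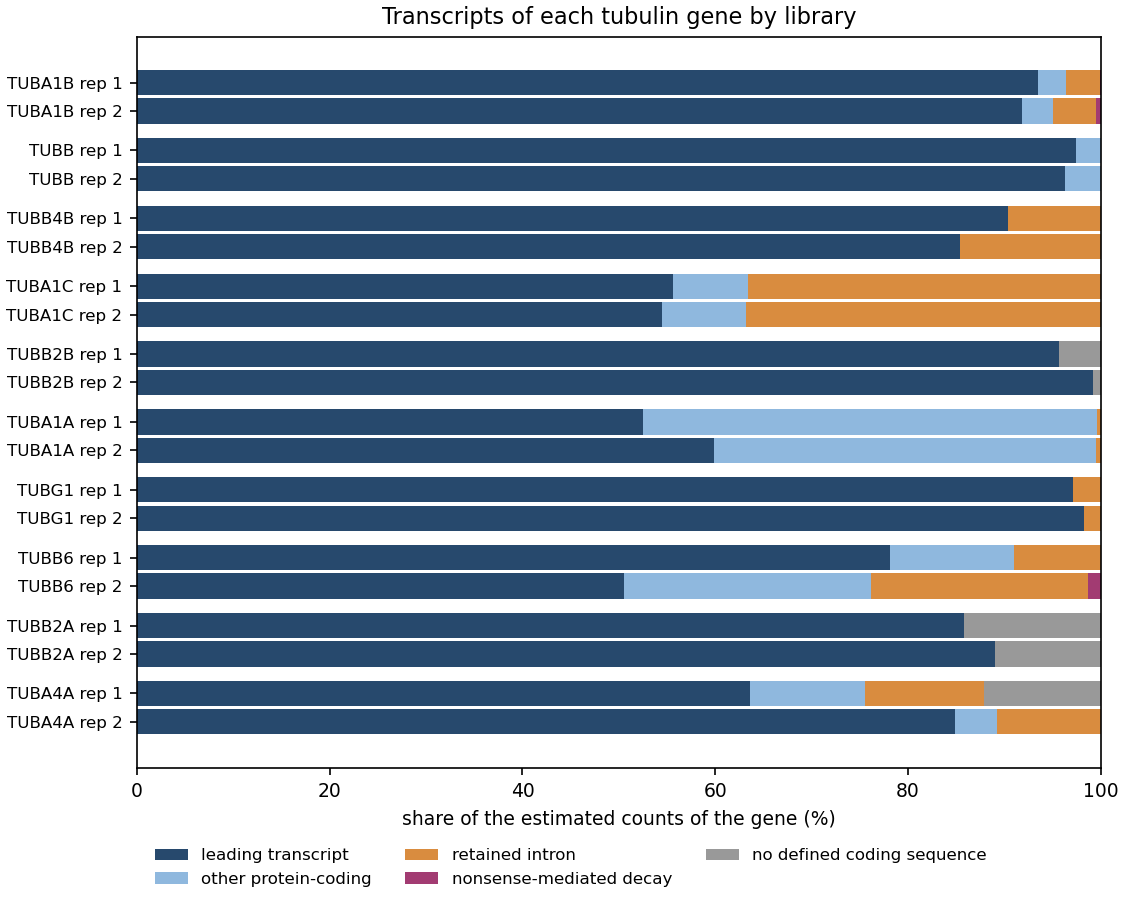
Share of the counts of each gene (horizontal axis, %) held by its leading transcript, by other protein-coding transcripts, by retained-intron transcripts, by transcripts annotated for nonsense-mediated decay and by those with no defined coding sequence, with 1 bar per library. TUBA1C shows a retained-intron share above 36% in both bars, and the bars of TUBB6 differ, with leading shares of 78.1% and 50.5%.

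By the share of its leader, TUBB6 was the member that differed most between the libraries, while its sum stayed close. Its leader TUBB6-201 was at 886 and 641 normalised counts in the first and the second library, which made up 78.1% and 50.5% of the gene. The retained-intron transcript TUBB6-202, which keeps an intron of 337 bases at chr18:12308350-12308686 on the plus strand, was at 93.4 and 273. TUBB6-211, annotated as protein-coding, was listed at 0 in replicate 1, where 3 counts, taken as the floor of a library, would be a share of 0.280%. It had 214 normalised counts in replicate 2, where it took 16.8% (exact binomial 95% interval 14.9 to 18.9). Against that floor the estimate was 67.3-fold higher in replicate 2. RSEM divides shared reads by estimate, so neither the floor nor this fold bounds the level of TUBB6-211 in replicate 1. TUBB6-211 has 0 bases outside the exons of the leader, and 47 of its 1443 stretches of 50 bases occur in it alone. TUBB6-213, also protein-coding, had 84.4 and 59.6 normalised counts.

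Of the 34 member transcripts that averaged 10 or more normalised counts, 7 were more than 2-fold apart, 4 of them higher and 3 lower in replicate 2. This was 29.4% for all 65698 transcripts of that level. Besides TUBB6-202 and TUBB6-211 they included TUBB-207, with 71.2 and 250.5 normalised counts, under 1% of TUBB in both libraries. The others, named after their values were seen, were TUBA1B-204 (15.7 and 99.4 normalised counts), TUBA1A-203 (40.02 and 6.44), TUBB-208 (66.2 and 28.3) and TUBB2B-202 (113 and 21.3). The sums of their genes were all within 2-fold.

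Of 12 further genes of the family, 8 averaged 10 or more normalised counts, where 19110 of 59026 matched genes did. TUBE1, the epsilon tubulin of centrioles, was the highest with a length-scaled level of 28.0 and 24.3, near TUBB2A and TUBB6, and the median of the list was 1.24. TUBA3C and TUBAL3 were listed at 0 in both libraries. Of the 8, 0 were more than 2-fold apart and 6 were higher in replicate 2, where the shares over all genes were 5.23% and 44.8%.

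Newly made tubulin is handed from prefoldin to the CCT chaperonin, and tubulin cofactors then assemble the dimer. The 8 CCT subunits ranged from a length-scaled level of 124 and 94.97 for CCT6A to 412 and 353 for CCT3. All 8 were lower in replicate 2, while 44.8% of all genes were higher there. Their median log2 difference was -0.37 in normalised counts against -0.06 over all genes. The 6 prefoldin subunits, from PFDN1 (36.2 and 32.5 per length) to PFDN5 (200.4 and 180 per length), were likewise lower in replicate 2, with a median of -0.20. These directions were the same with TMM factors and with counts per 1000000, and their cause was not tested. Of these 14 genes 0 passed 2-fold, near the share of 5.23% over all genes. The tubulin members themselves had a median of 0.10 in the same comparison. Of the 7 folding cofactors 4 were higher and 3 lower in replicate 2, with TBCA, which binds beta tubulin, the highest at a length-scaled level of 409 and 294, and TBCEL the lowest at 6.41 and 6.64.

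The gamma-tubulin ring complex anchors TUBG1 through proteins of the GCP family and the small MZT proteins. Among its 9 other genes, MZT2B was the highest with a length-scaled level of 220.1 and 294, and TUBGCP5 the lowest with 10.2 and 8.35. MZT1, a small subunit of the complex, was the 1 gene of these lists more than 2-fold apart among those averaging 10 or more, with 1614 normalised counts in replicate 1 and 779 in replicate 2 (log2 difference -1.05). Of the 2 genes of tubulin mRNA autoregulation, TTC5 was at a length-scaled level of 13.3 and 11.8, and SCAPER, which links TTC5 to mRNA decay, at 6.66 and 6.42. Among 7 genes of tubulin modification, the deacetylase SIRT2 was the highest at 42.5 and 48.9 per length, and VASH2, a tubulin carboxypeptidase, the lowest at 2.21 and 3.16. None of these 9 genes passed 2-fold, where 5.23% of all genes averaging 10 or more did.

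**Figure D5:**
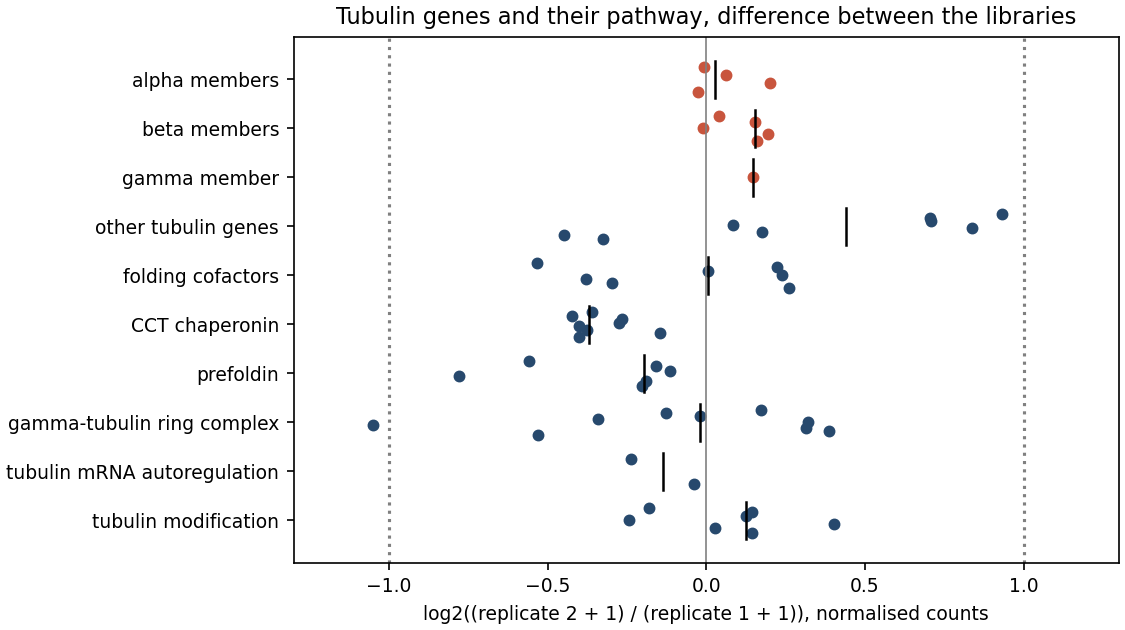
Log2 difference between the libraries (horizontal axis, replicate 2 over replicate 1 in normalised counts, 1 added to each) for every gene of a list with a mean of at least 10, with 1 point per gene, a short line at the median of the list and dotted lines at 2-fold. The tubulin members (red) lie between -0.02 and 0.20, the points of the CCT chaperonin and of prefoldin all lie below 0, and MZT1 is the point beyond 2-fold.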

How the data were processed

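Total RNA depleted of rRNA was sequenced from TruSeq libraries of HEK293 Flp-In T-Rex cells (1 group, 2 libraries). The authors deposited, per transcript, an estimated count, for which RSEM shares out reads that map to more than 1 transcript, and a normalised signal, named EB-Seq-Normalised per the file headers. The ratio of the first to the second was constant within a library (0.945 and 1.08). The submitters' processing notes name FastQC, STAR 2.7.0d, RSEM 1.3.3 and R 3.6.3, and the genome was GRCh38. No strand setting was found in the labels or methods. Separate tables of METTL8 transcripts were left out.

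Identifiers without version were matched to GENCODE v44 (202217 of 206696 transcripts), which held 96.9% and 96.8% of the counts. Length-scaled levels are estimated counts divided by GENCODE transcript length, scaled to 1000000 over matched transcripts of a library. Log2 differences between the libraries used normalised counts with a pseudocount of 1, and genes or transcripts with a mean of at least 10. Intervals are exact (Clopper-Pearson, 95%) on rounded estimated counts, and the floor of a transcript at 0 is 3 counts per library. They cover counting error only, since PCR copies are not separate molecules. Coding sequences were aligned in pairs. Stretches of 50 bases were looked up on both strands in the GENCODE v44 sequences of the listed transcripts, and GENCODE v44 transcripts that were not listed were not searched. The scripts (Python 3.11.15, pandas 2.3.3, numpy 2.4.6, scipy 1.17.1, biopython 1.88, and edgeR 4.0.16 in R 4.3.3 for TMM factors) were tested on simulated data.

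The genes and lists were chosen with earlier results of these data known. All 10 members are named, with transcripts that hold at least 5% of a member, those over 2-fold apart with a mean of at least 100, and from each pathway list the highest, the lowest and those over 2-fold apart. No p-value is given. Alternatives covered length scaling, effective and union length, protein-coding transcripts alone, filters, pseudocounts, pseudogene counts of beta and gamma members, normalisation and each library alone. The ends of the alpha coding sequences are not reported here.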

Additional observations from a re-analysis of the deposited data

How the results depend on the processing

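The libraries are 2 of 1 group, so no effect between conditions was measured, and the low count of TUBA4A limits its shares. No paired analysis was possible because there is 1 group. The share of TUBA1B in the alpha class (80.3%) was 81.2% as normalised counts, 83.5% per union of exons and 84.6% with protein-coding transcripts alone. It was 83.5% with all counts of TUBA1B-AS1 added to TUBA1B, a setting that could only raise it. With 1 library left out it ranged from 80.1% to 80.5%. The share of TUBB in the beta class (65.6%) was 74.4% as normalised counts, 64.3% per effective length and 68.0% with protein-coding transcripts alone, and 65.0% to 66.3% with 1 library left out. The log2 ratio of alpha to beta (-0.24) was -0.75 as normalised counts, -0.18 per effective length, -0.79 per union of exons, -0.32 with protein-coding transcripts alone, -0.23 without transcripts under 1 count in either library and -0.25 with pseudogene counts added, and -0.24 with either library left out. Pseudogene counts were added only for pseudogenes named after a single member, such as TUBBP1, TUBB2BP1 and TUBG1P. TUBAP2 and the other alpha pseudogenes were not added, so this setting could raise beta and gamma members only. The log2 ratio of TUBG1 to beta (-4.05) was -4.53 as normalised counts and -4.80 per union of exons, and -4.09 to -4.01 with 1 library left out. The median share of the leading transcript (87.6%) was 83.8% per length, 96.8% with protein-coding transcripts alone and 88.5% without transcripts under 1, and 87.2% to 88.1% with 1 library left out. The share of protein-coding transcripts, as the median over members within each library, had a mean of 92.7% and was 92.1% to 93.3% with 1 library left out.

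In place of 0 genes, 7 transcripts of the members were over 2-fold apart. The log2 ratio of TUBA1B to TUBB (0.05) reversed to -0.62 as normalised counts, -0.43 per union of exons, -0.0088 with protein-coding transcripts alone and -0.054 with the leading transcript alone. That of TUBA1C to TUBB2B (0.47) reversed to -0.037, -0.13, -0.36 and -0.68 in the same settings. That of TUBA1A to TUBG1 (0.00) reversed to -0.013 per effective length, -0.0091 without transcripts under 1, -0.022 with pseudogene counts (added to TUBG1 only), -0.83 with the leading transcript alone and -0.077 without replicate 1 (0.083 without replicate 2). That of TUBB6 to TUBB2A (0.13) reversed to -0.17 per union of exons, -0.035 without transcripts under 1 and -0.41 with the leading transcript alone. Adding antisense counts and taking the leading transcript alone were chosen after seeing the data. The number of neighbouring pairs that differ beyond their spread (6) was 7 as normalised counts, 8 per effective length, 4 per union of exons and 5 with the leading transcript alone. It could not be given with 1 library left, which has no SD. The cause of these changes beyond the lengths and transcripts each setting uses was not tested.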

Other observations

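Tubulin pseudogenes contributed few counts. Of 51 annotated tubulin pseudogenes matched to the tables, 34 were listed at 0 in both libraries, and together they summed to 397 and 375 normalised counts in replicates 1 and 2. This was 0.638% and 0.574% of the sum of the 10 tubulin genes. The share of all genes at 0 in both libraries is not given here. A mean of at least 10 normalised counts was reached by 5 of the 51 pseudogenes, where 19110 of 59026 matched genes reached it. These 5 were named after their values were seen. TUBBP1, which shares 17.1% of the 50-base stretches of the TUBB leader, was the highest at 262 and 217, followed by TUBAP2 at 59.2 and 65.5, TUBG1P at 23.5 and 20.6, TUBBP5 at 13.4 and 22.6, and TUBB8P1 at 16.9 and 12.1. Whether these counts are reads of the functional genes was not tested.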
